A study of Mus musculus with 24 samples.

Results

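The genes described here are 42 markers of the liver cells that are not hepatocytes. They were chosen by name, as genes that mark Kupffer cells and other macrophages (11 genes), endothelial cells (11), stellate cells and fibroblasts (11), bile duct cells (5) and leukocytes (4). The rule names genes and uses no measured value. All 42 were found among the 56941 genes of the deposited matrices, and all 42 passed the filter on low counts that left 20514 genes for testing.

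The study sequenced polyadenylated RNA from whole mouse liver in 24 libraries, 3 for each of 8 groups. Bmal1 encodes a transcription factor of the circadian clock. Wild-type mice (WT, Bmal1+/+) and mice lacking Bmal1 in the whole body (KO, Bmal1-/-) were bred on a C57BL/6J background. Floxed mice without Cre (F, Bmal1f/f) served as controls for mice that carry the same floxed alleles and Alb-Cre (LKO, liver-specific knockout). Alb-Cre is driven by the albumin promoter, which is active in hepatocytes, so the marker genes were read in LKO liver mostly in cells that the Cre driver does not target; duct cells share a fetal precursor with hepatocytes and are a possible exception. Each genotype was sampled at 2 circadian times, CT2 and CT14. The labels do not say whether the 3 libraries of a group came from separate animals, so a p-value here speaks for the scatter among libraries, which may be technical.

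Liver lobules are built of hepatocytes around blood sinusoids. Kupffer cells are the resident macrophages of the sinusoids and clear particles from portal blood, sinusoidal endothelial cells form the fenestrated wall and take up waste molecules through scavenger receptors, and stellate cells store vitamin A and make matrix when activated. Bile duct cells line the ducts that drain bile, and T cells, B cells and antigen-presenting cells pass through the tissue. In RNA from whole liver, a lower level of a marker can come from fewer cells of a type or from less RNA per cell, and the 2 cannot be told apart.

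The files gave between 88995259 and 131544733 estimated counts per library, so that even the sparsest marker, Cd3e, had at least 11 counts in every library. Log2 CPM profiles of replicates correlated at 0.933 to 0.973. Bmal1 itself lay between 26.6 and 33.8 CPM (counts scaled to a common library total) in WT and F libraries at CT2, and between 5.46 and 7.91 CPM in all KO and LKO libraries at either time. At CT14 it lay between 2.93 and 14.97 CPM in WT and F libraries, so that its level did not separate the genotypes at that time. The third replicates of F at CT2 and of LKO at CT2 stood apart: they were the library furthest from its own group for 16 and for 7 of the 42 markers, and their mitochondrial share, 1.37% and 1.82%, was below the 2.11% to 4.92% of the other libraries. Ddx3y, a gene of the Y chromosome, was at 3.86 and 8.15 CPM in them and at 9.61 CPM in the first KO library at CT2, against 25.7 to 48.5 CPM elsewhere. Some results that rest on the third replicates of F and LKO at CT2 are given with and without both. Correlations within groups, and differences of single markers between the 2 times, are given only with them.

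The markers spanned more than 2 orders of magnitude in level. Per transcript length, in TPM (transcript levels corrected for length) averaged over all 24 libraries, the highest were Cd5l (183.9 TPM), a secreted protein of macrophages, Cd74 (161.9 TPM), the invariant chain of MHC class II, Clec4g (124.3 TPM), a lectin of sinusoidal endothelium, Dcn (122.4 TPM), the matrix proteoglycan decorin, and Clec4f (108.2 TPM), a lectin of mouse Kupffer cells. The lowest were Cd79a (1.38 TPM) of the B cell receptor, Epcam (1.24 TPM), an epithelial adhesion protein, Cd3e (0.645 TPM) of the T cell receptor and Krt7 (0.438 TPM), a duct keratin. Defining markers of every class were therefore detected in every library, but those of ducts and lymphocytes only at a few TPM or less. Summed over its genes, the Kupffer class ranged from 414.1 to 1365 TPM between libraries, the endothelial class from 220.7 to 390.0 TPM and the stellate class from 211.1 to 315.7 TPM. The duct class ranged from 23.5 to 322.6 TPM and was carried by Spp1, and the leukocyte class ranged from 69.7 to 569.2 TPM and was carried by Cd74.

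**Figure D1:**
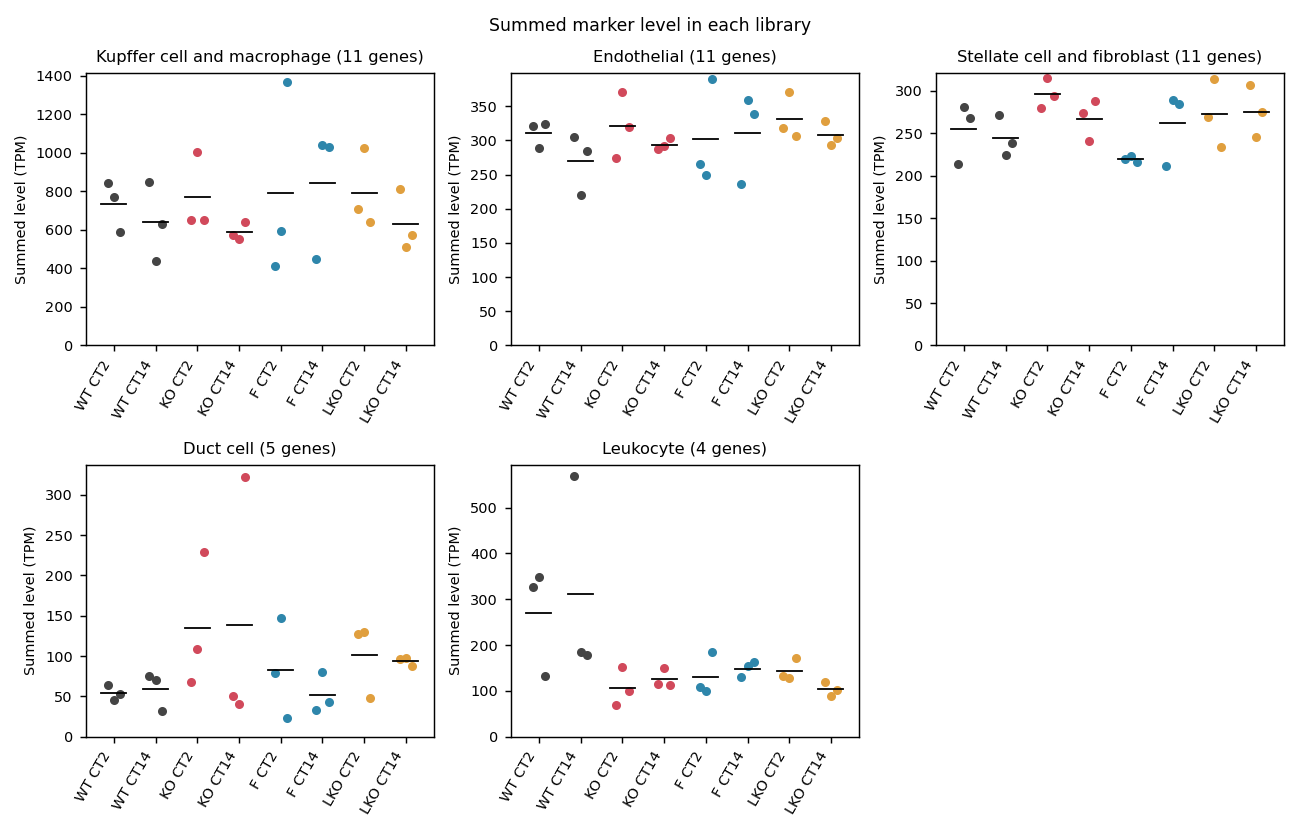
Summed level of each marker class (TPM, vertical axis) in the 24 libraries by group (horizontal axis); each point is a library and each line a group mean of 3. The endothelial and stellate sums stay within narrow bands, the Kupffer sum reaches 1365 TPM in the third F library at CT2, the duct sum reaches 322.6 TPM in the third KO library at CT14, and the leukocyte sum is highest in WT.

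In KO liver the share of these markers that passed the test was near that of all genes. In KO against WT, averaged over both times, 3 of the 42 (7.14%) passed an adjusted p of 0.05, beside 5.4% of all 20514 genes tested (edgeR's quasi-likelihood test with Benjamini-Hochberg adjustment over all genes). Cd74 and Lyve1 fell and Sox9 rose. The median log2 fold change over the 42 markers was -0.08, beside 0.01 over all genes tested, with 13 above 0 and 29 below. Of 9 hepatocyte genes, 2 fell in KO against WT and 1 in LKO against F. Alb, albumin, fell by 0.87 ± 0.17 (edgeR adjusted p = 0.00269) and by 0.97 ± 0.17 (edgeR adjusted p = 0.00160). Their summed level was 104950 ± 12205 CPM in WT, 71332 ± 13697 CPM in KO, 107870 ± 15297 CPM in F and 71530 ± 9053 CPM in LKO (SD, n = 6 each); its part in the marker values was not tested.

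Cd74, which chaperones MHC class II molecules in antigen-presenting cells, had the largest log2 fold change of the 42 in KO over both times; at CT14 those of Lyve1 and Sox9 were larger. At CT2 it measured 274, 289 and 98.0 CPM in the WT libraries and 55.8, 98.5 and 64.5 CPM in the KO libraries. At CT14 it measured 464, 168 and 147 CPM in WT and 86.1, 101 and 81.0 CPM in KO. All 3 KO libraries lay below all 3 WT libraries at CT14, while at CT2 the highest KO and the lowest WT library overlapped narrowly, and WT was the more variable genotype at both times. The log2 fold change over both times was -1.57 ± 0.28 (SE; edgeR adjusted p = 0.00193; 6 libraries a side), a level 2.96-fold lower. At CT14 alone it was -1.54 ± 0.40 (edgeR adjusted p = 0.0273), a call that was lost without the first WT library (log2 fold change -0.82, edgeR adjusted p = 0.266) or without any 1 of the 3 KO libraries (edgeR adjusted p from 0.0625 to 0.105), and with limma (adjusted p = 0.1025). At CT2 it was -1.59 ± 0.40 (edgeR adjusted p = 0.101), and 0 of the 42 markers passed there, beside 0.517% of all genes. There, 2 markers had an unadjusted p under 0.05, DESeq2 called 1 (Cd74) and limma 0. In the authors' deposited table for KO against WT at CT14, 4 markers are under an adjusted p of 0.05, beside 12.3% of its genes. Of these, 3 are higher and 1 is lower. The lower one is Lyve1 (-2.12), so Cd74 is not among the markers called lower there. Over both times that source has 3, with 1 higher and 2 lower, beside 8.31%.

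Floxed control livers were also below WT in Cd74. F libraries measured 84.3, 82.8 and 147 CPM at the earlier time and 119, 118 and 125 CPM at the later. LKO libraries measured 90.1, 81.3 and 138 CPM, then 79.2, 64.9 and 67.9 CPM. F, LKO and KO libraries overlapped one another, and 5 of the 6 WT libraries were level with or above the highest of F and LKO. F against WT gave -1.09 ± 0.28 (edgeR adjusted p = 0.0441), 1 of 2 markers called in that comparison (4.76% of the 42) beside 2.54% of all genes, but this call was lost in 18 of the 24 fits that left out 1 library, with an adjusted p of at most 0.135. LKO against F gave -0.40 ± 0.28 (edgeR adjusted p = 0.663). The difference between the KO and the LKO effect was -1.17 ± 0.39 on the log2 scale (edgeR adjusted p = 0.373). KO against WT and F against WT share the WT libraries, and F against WT and LKO against F share the F libraries. The breeding line of F differs from that of WT, so F against WT cannot tell line from floxed allele.

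**Figure D2:**
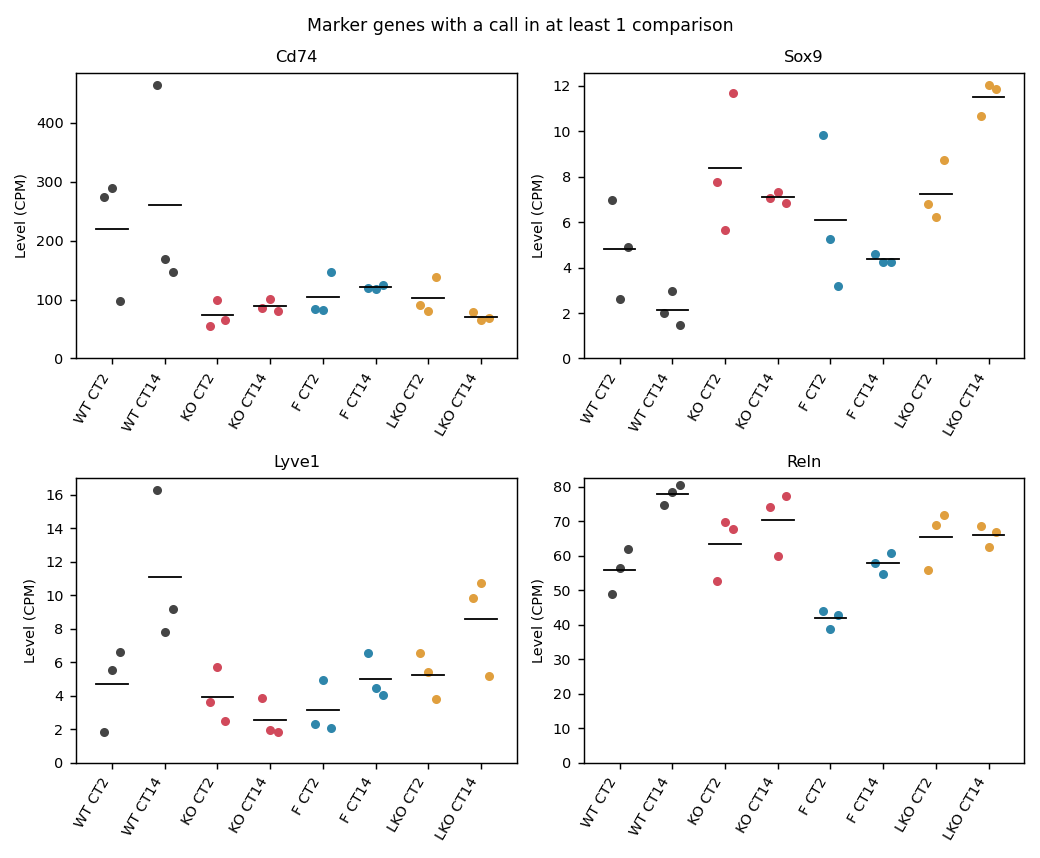
Level (CPM, vertical axis) of Cd74, Sox9, Lyve1 and Reln in the 24 libraries by group (horizontal axis); points are libraries and lines are group means of 3. Cd74 reaches 464 CPM in WT and stays at or below 147 CPM elsewhere, the group mean of Sox9 is highest in LKO at CT14 (libraries at 10.7 to 12.0 CPM) and that of Lyve1 in WT at CT14 (7.80 to 16.3 CPM), and that of Reln is lowest in F at CT2 (38.9 to 44.0 CPM).

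The MHC class II genes that work with Cd74 were lower in KO as well. In a list of 10 dendritic cell and MHC class II genes, 3 fell in KO against WT, 0 rose, and all 10 estimates were below 0 (median log2 fold change -1.33). H2-Aa, an MHC class II alpha chain, fell by 1.68 ± 0.31 (edgeR adjusted p = 0.00209), H2-Ab1, a beta chain, fell by 1.66 ± 0.34 (edgeR adjusted p = 0.00520) and Ciita, the master activator of class II transcription, fell by 1.84 ± 0.37 (edgeR adjusted p = 0.00353). The summed level of the list was 249.6 ± 128.9 TPM (SD, n = 6) in WT, 90.0 ± 49.2 TPM in KO, 156.8 ± 38.9 TPM in F and 140.8 ± 35.2 TPM in LKO. In LKO against F, 0 of the 10 passed edgeR's test and 0 had an unadjusted p under 0.05. Of 11 T and NK cell genes, 2 fell in KO against WT, Gzma (-1.72 ± 0.48, edgeR adjusted p = 0.0378), a granule protease, and Nkg7 (-1.21 ± 0.32, edgeR adjusted p = 0.0307), a granule membrane protein. That list summed to 14.9 to 44.0 TPM in WT, 5.76 to 27.3 TPM in KO, 8.41 to 22.8 TPM in F and 10.4 to 16.0 TPM in LKO. These ranges overlapped, and the highest value was that of the first WT library at CT14. How far a change in cell numbers contributed to these values was not tested.

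**Figure D3:**
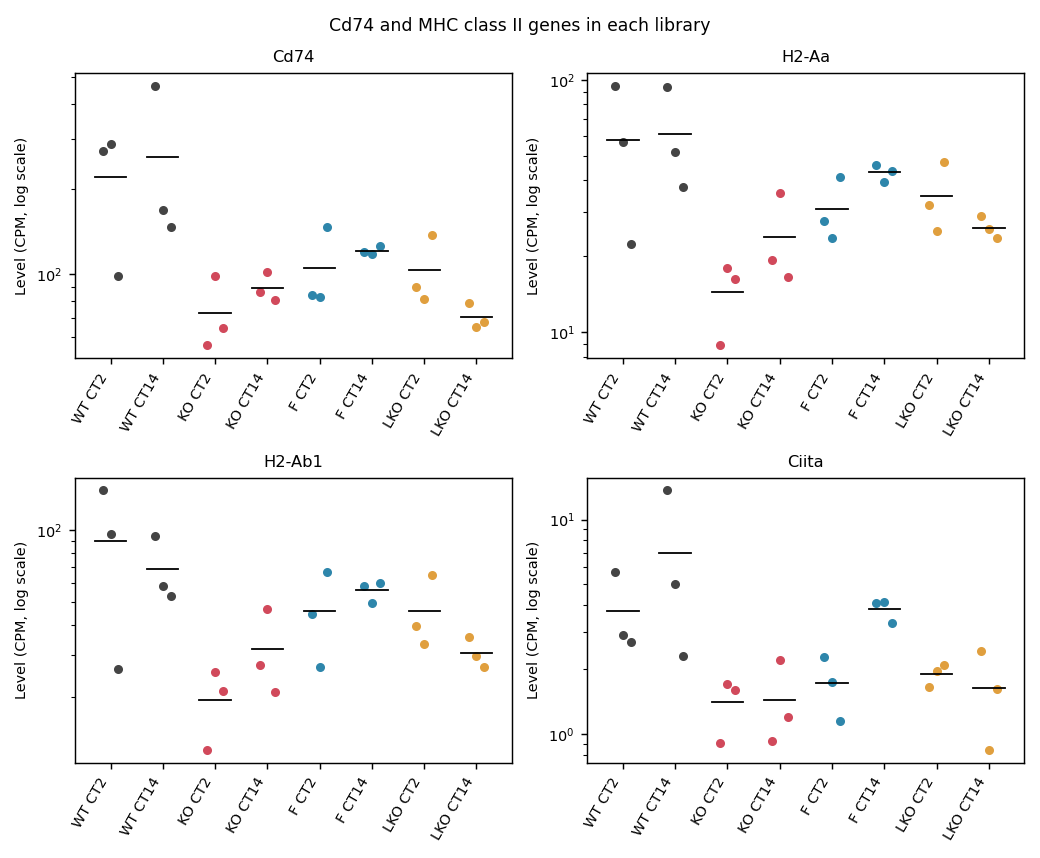
Level (CPM, log scale, vertical axis) of Cd74 and the MHC class II genes H2-Aa, H2-Ab1 and Ciita in the 24 libraries by group (horizontal axis); points are libraries and lines are group means of 3. In each panel the first WT library at CT14 is well above every KO library (H2-Aa 93.5 CPM against 8.86 to 35.8 CPM), and for Cd74, H2-Aa and H2-Ab1 the third WT library at CT2 lies within the KO range (H2-Aa 22.3 CPM).

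The other leukocyte markers did not pass in KO. Ptprc (CD45), the phosphatase on all leukocytes, ranged from 8.28 to 16.5 CPM in WT and from 7.14 to 13.6 CPM in KO, with medians of 9.65 and 9.63 CPM, and its log2 fold change was -0.12 ± 0.35 (edgeR adjusted p = 0.939). Cd3e gave -0.70 ± 0.43 (edgeR adjusted p = 0.453) and Cd79a 0.10 ± 0.48 (edgeR adjusted p = 0.969). These 3 markers thus showed no change in KO that this design could detect, beside a 2.96-fold difference in Cd74. Of 7 B and plasma cell genes, 0 passed edgeR's test in KO against WT, with 1 at an unadjusted p under 0.05, and 1 rose in LKO against F. That was Ighm, the heavy chain of IgM (1.52 ± 0.33, edgeR adjusted p = 0.0120), at 7.18 to 32.0 CPM in LKO and 4.61 to 13.5 CPM in F, ranges that overlapped through the third LKO library at CT14. The list summed to 15.5 to 59.6 CPM in WT, 17.3 to 29.9 CPM in KO, 21.6 to 145.9 CPM in F and 44.9 to 210.9 CPM in LKO. In LKO against F at CT14, Ptprc measured 8.51, 5.14 and 5.82 CPM in LKO and 6.38, 17.0 and 17.4 CPM in F. The groups overlapped through the first F library, and the difference of -1.07 ± 0.50 did not pass (edgeR adjusted p = 0.457).

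Sox9, a transcription factor of duct cells and of periportal hepatocytes, was higher in KO. At CT2 it measured 6.96, 2.61 and 4.93 CPM in WT and 7.78, 5.64 and 11.7 CPM in KO. At CT14 it measured 1.99, 2.98 and 1.46 CPM in WT and 7.09, 7.33 and 6.85 CPM in KO. The groups overlapped at CT2 and were far apart at CT14, where all 3 KO libraries were above all 3 WT libraries. The log2 fold change was 1.26 ± 0.26 over both times (edgeR adjusted p = 0.00470) and 1.72 ± 0.37 at CT14 (edgeR adjusted p = 0.00634), and both calls held in each of the 24 fits that left out 1 library (adjusted p up to 0.0186 and 0.0458). Cd74, Lyve1 and Sox9 were the 3 markers called at CT14, beside 5.31% of all genes.

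In LKO liver Sox9 was higher at CT14 as well, without passing the test. It measured 10.7, 12.0 and 11.9 CPM in LKO and 4.61, 4.26 and 4.23 CPM in F at CT14, with no overlap. The estimate was 1.40 ± 0.36 (edgeR adjusted p = 0.0535). At CT2 the values were 6.81, 6.24 and 8.72 CPM in LKO and 9.85, 5.26 and 3.18 CPM in F, which overlapped. At CT14, 0 of 42 markers passed edgeR's test, beside 1.73% of all genes; 6 had an unadjusted p under 0.05, and DESeq2 and limma each called 1, which was Sox9. Sox9 also passed (1.39 ± 0.32, edgeR adjusted p = 0.0193) once the 2 libraries that stood apart were left out. Over both times its log2 fold change was 0.83 ± 0.25 (edgeR adjusted p = 0.0898), which passed with DESeq2 (adjusted p = 0.0304) and limma (adjusted p = 0.0120) and without the first F library at CT2 (1.09 ± 0.24, edgeR adjusted p = 0.0159). It was smaller without the 2 libraries that stood apart (0.60 ± 0.25, edgeR adjusted p = 0.248). In the authors' deposited table for LKO against F at CT14 it has a log2 fold change of 1.40 and is among 7 markers under an adjusted p of 0.05. The other 6 in the authors' deposited table, Clec4f (-0.66), Vsig4 (-0.90), Timd4 (-0.89), C1qa (-0.72), Ptprc (-1.06) and Cd74 (-0.77), are lower, and that table calls 11.7% of its genes with an adjusted p.

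The keratins and the adhesion marker of ducts did not pass where Sox9 did. Krt19, Krt7 and Epcam had log2 fold changes of 0.42 ± 0.27, -0.05 ± 0.33 and 0.14 ± 0.28 in KO against WT, and of -0.02 ± 0.27, -0.23 ± 0.33 and 0.03 ± 0.28 in LKO against F, none of which passed (edgeR adjusted p at least 0.477). Within the groups, the 5 duct markers did not vary together either: the median correlation of their deviations from the group means was 0.01 over 10 pairs and 24 libraries. Of 16 further duct genes, 2 rose in KO against WT and 0 fell. Prom1, a membrane protein of progenitor cells, was one of them (1.74 ± 0.43, edgeR adjusted p = 0.0199). In LKO against F, 0 of the 16 passed edgeR's test, with 4 at an unadjusted p under 0.05. Prom1 measured 7.26 CPM in the third KO library at CT14 and 0.841 to 3.60 CPM in the other KO libraries, against 0.419 to 1.31 CPM in WT.

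Markers of 2 other tissues were found in some libraries. Of 10 spermatid genes, 6 rose in KO against WT and 9 in F against WT, and 0 passed edgeR's test in LKO against F, where 0 had an unadjusted p under 0.05. Their summed level stayed low, at 6.82 to 9.40 CPM in WT, 5.77 to 17.3 CPM in KO, 12.8 to 39.7 CPM in F and 17.1 to 28.6 CPM in LKO. The protamine genes Prm1 and Prm2 were at 0.43 to 4.27 CPM in 2 KO libraries (the second at CT2 and the first at CT14) and all F and LKO libraries, and at 0 in the other 4 KO libraries. Without those 2 KO libraries, Sox9 (1.37 ± 0.28, edgeR adjusted p = 0.00758), Cd74 (-1.69 ± 0.33, edgeR adjusted p = 0.00647) and Lyve1 (-1.58 ± 0.36, edgeR adjusted p = 0.0154) still passed in KO against WT over both times, and Cd74 did not at CT14 (-1.51 ± 0.47, edgeR adjusted p = 0.0923). Pancreatic acinar genes summed to 2623 CPM in the third F library at CT2 and to 741 CPM in the third at CT14, against 24.4 to 101.6 CPM elsewhere. Of 10 acinar genes tested, 4 fell in LKO against F. Testis and pancreas also express Sox9. The F libraries that held acinar RNA, the third at CT2 and the third at CT14, had 3.18 and 4.23 CPM of Sox9. The CT14 value was nearly tied with that of the second F library at CT14 (4.26 CPM). Whether RNA from other tissues contributed to the Sox9 values was not tested.

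Spp1, osteopontin, was the most variable duct marker. It measured 53.9, 37.6 and 39.8 CPM in WT and 56.6, 77.7 and 162 CPM in KO at CT2, and 63.9, 65.5 and 25.2 CPM in WT and 36.4, 26.1 and 256 CPM in KO at CT14. The third KO library was the highest at each time, and at CT14 the other two KO libraries lay within the WT range. The log2 fold change of 1.11 ± 0.54 did not pass (edgeR adjusted p = 0.299). The third KO library at CT14 had a summed level of 10 interferon-stimulated genes of 2091 CPM, against 58.8 to 277 CPM in the other libraries. Its 5 monocyte genes summed to 61.6 CPM, against 8.12 to 32.5 CPM in the other libraries. Its Kupffer class sum, 649 CPM, lay within the 460 to 1489 CPM of the others. The part of these levels in the Spp1 value was not tested. Spp1 is also made by macrophages, so its level is not specific to ducts.

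Lyve1, a hyaluronan receptor of sinusoidal and lymphatic endothelium, was lower in KO at CT14. It measured 1.85, 5.57 and 6.63 CPM in WT and 3.61, 5.72 and 2.48 CPM in KO at CT2. At CT14 it measured 16.3, 7.80 and 9.199 CPM in WT and 3.89, 1.95 and 1.86 CPM in KO. WT and KO were interleaved at CT2 and fully separate at CT14. The log2 fold change was -2.12 ± 0.48 at CT14 (edgeR adjusted p = 0.00972), a level 4.33-fold lower, and -1.18 ± 0.33 over both times (edgeR adjusted p = 0.0379). The CT14 call was lost without the first WT library or without either the second or the third KO library at that time (edgeR adjusted p from 0.0531 to 0.0603), and the call over both times was lost in 7 of 24 such fits, with an adjusted p of at most 0.111, and with limma (-0.87, adjusted p = 0.1005). The change of the KO effect with time, -1.86 ± 0.65, did not pass (edgeR adjusted p = 0.280).

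In LKO liver the Lyve1 estimate had the other sign. At CT2, LKO libraries measured 6.57, 5.44 and 3.80 CPM and F libraries 2.34, 4.92 and 2.11 CPM. At CT14, LKO libraries measured 9.87, 10.7 and 5.19 CPM and F libraries 6.58, 4.47 and 4.02 CPM. The ranges overlapped at both times, and the log2 fold change of 0.76 ± 0.33 did not pass (edgeR adjusted p = 0.297). The difference between the KO and the LKO effect was -1.95 ± 0.46 (edgeR adjusted p = 0.121). In that comparison 0 of 42 markers passed edgeR's test, beside 0.107% of all genes; 4 had an unadjusted p under 0.05 and DESeq2 called 1, which was Lyve1.

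The remaining 10 endothelial markers did not pass edgeR's test in any comparison. Clec4g ranged from 68.6 to 103 CPM in WT, 76.6 to 101 CPM in KO, 83.8 to 134 CPM in F and 75.3 to 101 CPM in LKO, with medians of 93.5, 83.6, 98.6 and 81.9 CPM. Fcgr2b, an inhibitory Fc receptor that sinusoidal endothelium uses to clear immune complexes, ranged from 54.8 to 78.2 CPM in WT and from 46.8 to 56.8 CPM in KO. The ranges of all genotypes overlapped for both genes. Stab2, a scavenger receptor for hyaluronan, was the nearest to a call in KO against WT, at 0.35 ± 0.11 (edgeR adjusted p = 0.0652), with medians of 57.3 CPM in WT and 76.5 CPM in KO, and both DESeq2 and limma called it. The class median was -0.07 in KO against WT and -0.03 in LKO against F, with a median SE of 0.13, so that its estimates were the most precise of the 5 classes. Of 20 further endothelial genes, 0 passed edgeR's test in either comparison, with 2 and 0 at an unadjusted p under 0.05.

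By edgeR the Kupffer class held no called gene in any comparison, and its estimates leaned to one side. In KO against WT all 11 were below 0, from Adgre1 (F4/80) at -0.54 ± 0.30 to the scavenger receptor Marco at -0.03 ± 0.64, with a median of -0.26 and a median SE of 0.26. The class members rose and fell together between libraries, so the 11 signs are not 11 separate observations. Cd5l ranged from 148 to 305 CPM in WT and from 150 to 350 CPM in KO, with medians of 216 and 188.5 CPM. Clec4f ranged from 137 to 214 CPM in WT and from 134 to 221 CPM in KO, with medians of 175 and 141 CPM. The ranges nearly coincided for both genes, and the summed class level was 686.7 ± 162.6 TPM in WT and 678.7 ± 164.7 TPM in KO (SD, n = 6 each). On the CPM scale it was 787.8 ± 176.5 and 691.6 ± 153.1, a log2 ratio of -0.18.

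In LKO against F all 11 Kupffer estimates were below 0 as well, with a median of -0.38, and Cd5l was the lowest (-0.50 ± 0.27, edgeR adjusted p = 0.480). The lean over both times depended on the 2 libraries that stood apart. Cd5l measured 138, 197 and 442 CPM in F and 180, 258 and 158 CPM in LKO at CT2, and Marco measured 7.52, 13.8 and 80.3 CPM in F and 32.8, 45.5 and 14.3 CPM in LKO. The third F library was the highest and the third LKO library the lowest of its group for both genes. Without both libraries, the class median at CT2 went from -0.13 to 0.52, with all 11 above 0, and the median over both times went from -0.38 to -0.03. At CT14, a time those libraries do not belong to, although they enter the shared estimate of the spread, the median was -0.62 with all 11 below 0, from Cd68 at -0.33 to the complement receptor Vsig4 at -0.90 ± 0.33 (edgeR adjusted p = 0.241). Vsig4 measured 28.2, 75.3 and 62.9 CPM in F and 35.2, 26.3 and 27.5 CPM in LKO at CT14, where the first F library lay among the LKO libraries. Clec4f behaved alike, with 121, 216 and 193 CPM in F and 135, 96.8 and 103 CPM in LKO.

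Further macrophage genes outside the 42 changed singly. Of 16 in the list, 1 rose and 2 fell in KO against WT. Cx3cr1, the fractalkine receptor of monocytes and other macrophages, rose by 2.84 ± 0.40 (edgeR adjusted p = 0.000145), from 0.348 to 2.73 CPM in the WT libraries to 3.99 to 11.3 CPM in the KO libraries. Id3, a transcriptional regulator of Kupffer cells, fell by 0.87 ± 0.22 (edgeR adjusted p = 0.0203). Id3 is not made only by macrophages in liver, and which cells these changes lay in was not tested.

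Reln, reelin, a secreted glycoprotein that marks stellate cells in liver, was the only marker that passed edgeR's test in LKO against F. F was the genotype with low Reln values. The authors' deposited tables have 0 markers under an adjusted p of 0.05 in LKO against F over both times, beside 3.65% of their genes. At CT2 they have 0 as well, beside 1.2%. At CT2 Reln measured 44.0, 38.9 and 42.9 CPM in F and 55.9, 68.8 and 71.9 CPM in LKO. At CT14 it measured 57.9, 54.8 and 60.9 CPM in F and 68.8, 62.6 and 66.8 CPM in LKO. F lay below LKO without overlap at both times. The log2 fold change was 0.42 ± 0.10 over both times (edgeR adjusted p = 0.0161), 1 of 42 markers (2.38%) beside 3.13% of all genes, and this call held in each of the 24 fits that left out 1 library (adjusted p up to 0.0487) and without both libraries that stood apart (0.39 ± 0.10, edgeR adjusted p = 0.0341). At CT2 it was 0.64 ± 0.14 (edgeR adjusted p = 0.0353), 1 of 42 beside 0.4% of all genes, a call lost in 11 of the 24 fits and without both libraries (0.60 ± 0.16, edgeR adjusted p = 0.1001).

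WT livers did not share the low Reln of F. At CT2, WT libraries measured 49.0, 56.3 and 62.1 CPM and KO libraries 52.7, 69.7 and 67.8 CPM. At CT14, WT libraries measured 74.7, 78.6 and 80.6 CPM and KO libraries 74.3, 59.9 and 77.3 CPM. WT and KO overlapped at both times, with a log2 fold change of 0.02 ± 0.10 (edgeR adjusted p = 0.970), while F against WT was -0.42 ± 0.10 (edgeR adjusted p = 0.0222; lost in 4 of the 24 fits, adjusted p at most 0.0657). The difference between the KO and the LKO effect was -0.40 ± 0.13 and did not pass (edgeR adjusted p = 0.370).

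Reln was higher at CT14 than at CT2 in both control genotypes, with no overlap of the libraries, by 0.48 ± 0.14 in WT (edgeR adjusted p = 0.0641) and 0.47 ± 0.14 in F (edgeR adjusted p = 0.0708). Neither passed edgeR's test, and DESeq2 called both. The authors' deposited tables call Reln in WT but not in F (log2 fold change 0.44, DESeq2 adjusted p = 0.448). The time differences were 0.15 ± 0.13 in KO (edgeR adjusted p = 1) and 0.01 ± 0.13 in LKO (edgeR adjusted p = 0.997), where the libraries of the 2 times overlapped. The change in the time difference itself did not pass in KO (-0.33 ± 0.19, edgeR adjusted p = 0.672) or in LKO (-0.45 ± 0.19, edgeR adjusted p = 0.699).

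The Reln promoter is shown because it is 1 of 2 marker promoters that carry CACGTG, the palindromic E-box that BMAL1 and CLOCK bind as a pair; the other is that of Epcam. Promoters of 29 of the 42 markers were in the RefSeq table (mouse build GRCm38.p6), each running from 250 bases before to 50 bases after the start of the gene, and 2349 of all 32851 promoters in that table (7.15%) hold the motif on either strand. Each is written 5′ to 3′ on the strand of its gene with the motif in capitals. The one of Reln lies at chr5:22344656-22344955 on the minus strand with the motif at position 180 of 300, and the one of Epcam at chr17:87635729-87636028 on the plus strand with the motif at position 281. A match describes these letters and is not evidence of binding.
Reln: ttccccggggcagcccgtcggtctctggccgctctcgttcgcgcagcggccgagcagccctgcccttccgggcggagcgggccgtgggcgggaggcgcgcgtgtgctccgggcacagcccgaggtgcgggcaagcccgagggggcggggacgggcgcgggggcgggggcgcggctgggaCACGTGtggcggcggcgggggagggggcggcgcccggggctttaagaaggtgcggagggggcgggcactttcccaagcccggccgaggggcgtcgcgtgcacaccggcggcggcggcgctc
Epcam: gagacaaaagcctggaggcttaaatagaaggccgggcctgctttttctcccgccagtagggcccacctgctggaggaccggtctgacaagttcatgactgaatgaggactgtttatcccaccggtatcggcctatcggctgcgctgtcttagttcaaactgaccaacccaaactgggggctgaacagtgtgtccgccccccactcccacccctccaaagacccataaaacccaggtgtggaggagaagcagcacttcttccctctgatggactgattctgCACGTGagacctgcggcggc

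The other stellate and fibroblast markers did not pass edgeR's test in any comparison. Dcn ranged from 112 to 144 CPM in WT, 105 to 157 CPM in KO, 67.1 to 164 CPM in F and 53.8 to 158 CPM in LKO. Ecm1, a matrix protein that stellate cells and hepatocytes make, ranged from 79.6 to 116 CPM in WT and from 65.2 to 109 CPM in KO. Both lowest Dcn values belong to the libraries that stood apart, and the remaining ranges overlapped. The class median was 0.02 in KO against WT, -0.00 in LKO against F and -0.02 in F against WT. Rgs5, a pericyte marker, gave -0.45 ± 0.26 in LKO against F (edgeR adjusted p = 0.515) and passed without the 2 libraries that stood apart (-0.42 ± 0.10, edgeR adjusted p = 0.0181). Of 20 further stellate and fibroblast genes, 1 fell and 0 rose in KO against WT: Col14a1, a fibroblast collagen, by 0.65 ± 0.12 (edgeR adjusted p = 0.00198). It was also the only gene of the lists whose KO and LKO effects differed by edgeR's test (-0.96 ± 0.17, edgeR adjusted p = 0.0242). At CT14, Col3a1 and Col1a2, chains of fibrillar collagens, fell in KO by 1.35 ± 0.31 (edgeR adjusted p = 0.0101) and 1.17 ± 0.31 (edgeR adjusted p = 0.0298).

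**Figure D4:**
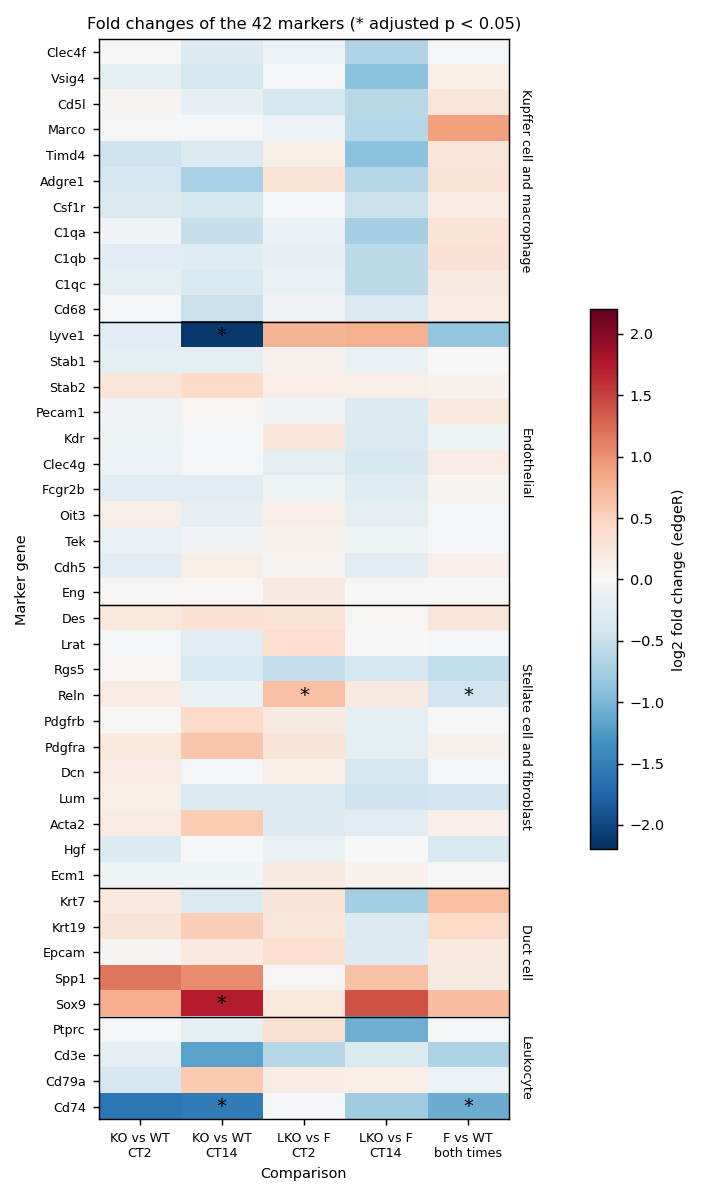
Log2 fold change (colour) of the 42 markers (rows, by class) in 5 comparisons (columns); an asterisk marks an edgeR adjusted p under 0.05. Lyve1 (-2.12) and Sox9 (1.72) in KO at CT14 are the deepest colours, the Kupffer rows are blue for LKO against F at CT14 (median -0.62), and most endothelial and stellate cells are pale.

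No marker passed edgeR's test in a comparison of the 2 times. In CT14 against CT2, edgeR called 0 of 42 in WT, KO, F and LKO, beside 2.54%, 0%, 2.66% and 0.848% of all genes, with 4, 0, 4 and 3 at an unadjusted p under 0.05. DESeq2 called 2 in WT (Reln, Sox9), 0 in KO, 2 in F (Acta2, Reln) and 3 in LKO (Acta2, Des, Pdgfrb), and limma called 0 in each. The shares of all genes above are edgeR's, and those under DESeq2 and limma are not given here. The authors' deposited tables have 5 markers under an adjusted p of 0.05 in WT (Lyve1, Lrat, Reln and Krt7 higher at CT14, Sox9 lower), beside 8% of their genes, and 2 in LKO (Pdgfrb and Acta2 lower), beside 4.46%. They have 0 in F, beside 2.93%, and 0 in KO, beside 0.217%. Acta2, smooth muscle actin, was nearest to a call: in F it measured 5.04, 6.21 and 8.86 CPM at the earlier time and 1.92, 3.86 and 4.29 CPM at the later, with no overlap (a log2 difference of -0.9997 ± 0.28, edgeR adjusted p = 0.0547). In LKO it measured 5.54, 4.70 and 6.30 CPM early and 2.62, 2.82 and 2.98 CPM late, again without overlap (-0.97 ± 0.28, edgeR adjusted p = 0.106). For the change of the time difference with the loss of Bmal1, edgeR called 0 of 42 in KO and 0 in LKO, beside 0.799% and 0.112% of all genes, with 1 and 3 at an unadjusted p under 0.05 and 0 by DESeq2 and limma in each. Without the 2 libraries that stood apart, the Kupffer median of that change in LKO went from -0.50 to -1.22. Of these 11 genes, which varied together, 8 then had an unadjusted p under 0.05 in edgeR's test, in place of 0. None passed after adjustment.

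Within groups, the Kupffer markers varied together more than the markers of any other class. The deviations of 2 genes from their group means, on log2(TPM + 0.1), had a median Pearson correlation of 0.856 over the 55 Kupffer pairs, 0.648 over the 55 endothelial pairs, 0.435 over the 6 leukocyte pairs, 0.276 over the 55 stellate pairs and 0.01 over the 10 duct pairs. The closest pair was C1qb and C1qc (0.979, Spearman 0.954), chains of complement C1q that macrophages make in 1 complex. Kupffer markers also varied with endothelial (0.585) and leukocyte markers (0.576), and not with duct markers (0.006). These values describe 24 libraries that share their preparation and depth, and are given without a test. The third F library at CT2 was the furthest from its group for most Kupffer markers. Csf1r, for example, measured 183 CPM there and 47.1 and 62.4 CPM in the others of its group. The correlations were not computed without that library, so its part in them is not known. Endothelial and stellate medians fell on the CPM scale, to 0.519 and 0.007.

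In the stellate class the within-group spread split in 2 directions. Rgs5 and the growth factor gene Hgf varied together (0.928), while Rgs5 and Ecm1 varied oppositely (-0.720). Hgf measured 11.3, 6.38 and 1.36 CPM in F and 7.56, 8.23 and 1.45 CPM in LKO at CT2, and Ecm1 measured 73.8, 73.2 and 133 CPM in F and 77.3, 75.5 and 168 CPM in LKO. The third library of each group was far below the others in Hgf and above them in Ecm1. Across the 42 markers, the departure of a gene from its group mean went with the GC share of its longest transcript in these libraries (Pearson 0.706 and Spearman 0.682 in F; 0.756 and 0.691 in LKO). Over all 19849 tested genes with a GC share, the same correlation was 0.434 and 0.432. In the 18 libraries of the other 6 groups it lay between -0.302 and 0.337 for the markers. Ptprc, whose transcript is also low in GC, measured 12.4, 15.5 and 2.28 CPM in LKO at CT2, again with the third library low. The part of GC share in these values was not tested further.

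**Figure D5:**
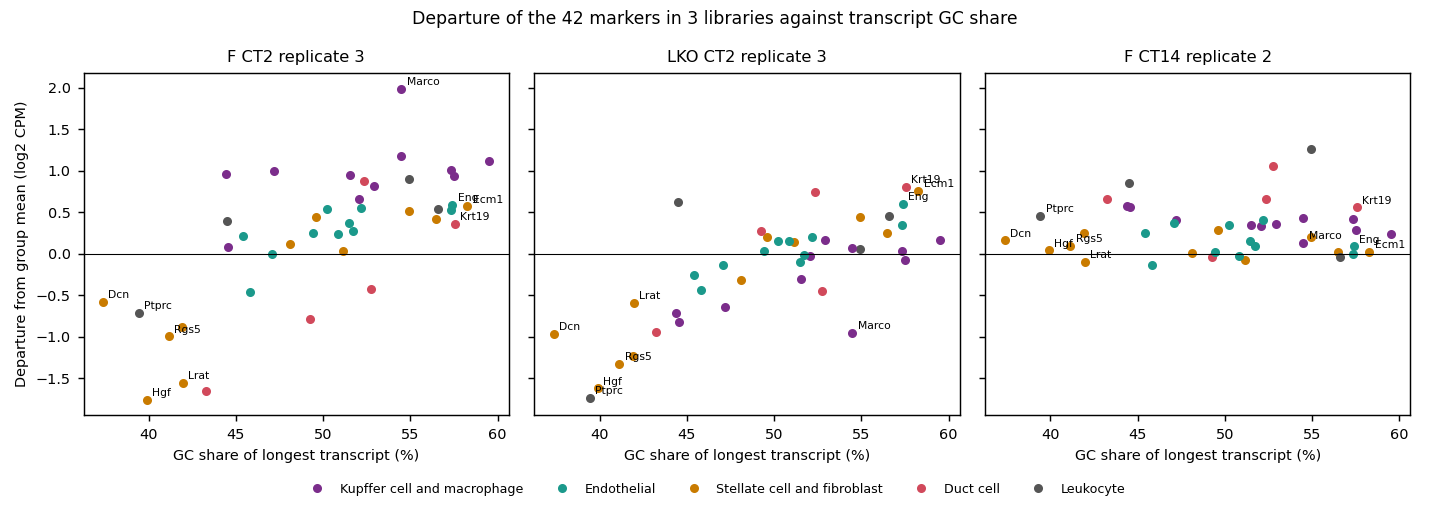
Departure of each of the 42 markers from its group mean (log2 CPM, vertical axis) against the GC share of its longest transcript (percent, horizontal axis), coloured by class. The first 2 panels are the libraries that stood apart (Pearson 0.706 and 0.756), and the last, the second F library at CT14, is shown as one without the relation (Pearson 0.008).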

How the data were processed

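Poly(A) RNA of 24 liver libraries was measured. Per the submitters' processing notes the tools were fastp 0.23.2, HISAT2 2.2.1 and StringTie 1.3.1, and the build GRCm39; their settings are not stated in those notes. The authors deposited estimated counts as whole numbers (low values pile up at multiples of 4, 1.33 to 1.53 times above their neighbours), a TPM matrix, and tables of their own comparisons with log2 fold changes and p-values. Here, the counts were tested as deposited with edgeR 4.0.16 (TMM, filterByExpr with a minimum count of 10, robust quasi-likelihood F test, 1 fit over all 8 groups, R 4.3.3), with Benjamini-Hochberg adjustment over 20514 genes and a threshold of 0.05. CPM compares libraries and TPM compares genes. Alternatives were DESeq2 1.42.0, limma 3.58.1 on log2(TPM + 0.1), RLE size factors, no filter, counts divided by 4, a replicate block, fits of the compared groups alone, and fits without 1 library or without libraries that stood apart. Groups came from the labels. Named genes were every called marker, the 2 with the highest TPM per class, the 3 with the largest fold change per genotype comparison, the one furthest from its group per class, and at most 3 called genes per further list and comparison, of which 2 are not reported here. Stab2, Rgs5, Acta2, Vsig4 and the other markers named beside them were chosen after their values were seen, as was 1 alternative, which leaves out the third replicates of F and LKO at CT2 together. The markers and lists were chosen with earlier results of these data known. GC shares came from GENCODE vM21 transcripts. The edgeR step was tested on simulated data.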

Additional observations from a re-analysis of the deposited data

How the results depend on the processing

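Leaving out 1 library at a time, the number of the 42 markers called by edgeR ranged from 2 to 4 in KO against WT (3 with all libraries), 0 to 1 at CT2 (0), 1 to 3 at CT14 (3), 1 to 2 in LKO against F (1), 0 to 1 at CT2 (1), 0 to 1 at CT14 (0), 0 to 1 for the difference of the KO and LKO effects (0), 0 to 2 in F against WT (2), and 0 to 1 for CT14 against CT2 in WT, F and LKO (0 each). DESeq2 called 1 in KO at CT2, 2 in LKO against F, 1 at CT14 there, 1 for the difference of effects, and 2, 2 and 3 for time in WT, F and LKO. limma called 2 in LKO against F, 1 at CT14 there and 0 in F against WT. Without a filter on low counts, 0 were called in LKO against F at CT2 and 0 in F against WT. Fits of the compared groups alone gave 0 in LKO against F at CT2, 2 at CT14 and 1 in F against WT. RLE size factors gave 1 in F against WT, and counts divided by 4 gave 1 in LKO against F at CT14 and 1 for time in F. Counts of markers under such alternatives are given throughout without the share of all genes called under the same setting. They therefore cannot be read against that share.

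Without the third replicates of F and LKO at CT2, the counts were 4 in KO against WT, 3 at CT14, 2 in LKO against F, 0 at CT2, 1 at CT14, 3 in F against WT and 2 for time in WT. Leaving out the first KO library at CT2 as well, which shares their low Ddx3y, gave 4, 4, 2, 0, 1, 3 and 2 in the same order, with 2 for time in F and 1 in LKO; Lyve1 was then not called in KO against WT (adjusted p = 0.0733). Without the 2 F libraries with acinar RNA, 0 were called in LKO against F at CT2, 0 in F against WT and 1 for time in LKO. Without the 2 KO libraries with protamine RNA, 2 were called in KO against WT at CT14 and 0 in LKO against F at CT2. The cause of these shifts was not tested. The log2 ratio of summed levels, KO over WT, was -0.000728 in CPM in place of TPM for the stellate class (0.178 in TPM), and 0.0698 as the median of log2(TPM + 0.1) for the leukocyte class (-1.19 as a sum). The sign was checked for the single markers named for a call or a largest fold change, and none reversed under any alternative run. Class values did change sign, as did both ratios above. The Kupffer median in LKO against F at CT2 was -0.13 with all libraries. It was 0.52 without the third replicates of F and LKO at CT2.

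The replicate numbers showed no general pairing of the libraries. Same-numbered libraries deviated from their groups with a median correlation of -0.006 over 84 pairs (-0.146 to 0.312). Over 168 other pairs the median was 0.004 (-0.297 to 0.188). A median cannot exclude a link between single libraries. With a replicate block, 1 marker was called in F against WT in place of 2, and the number called in every other comparison was unchanged.

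With 3 libraries a group, smaller changes in Spp1 (SE 0.54), Marco (SE 0.64) and the lymphocyte markers could not be resolved.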
